A study of Homo sapiens with 30 samples.

Results

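The ZNF genes are the numbered members of the human zinc finger gene nomenclature, and 278 of them were expressed in these BEAS-2B bronchial epithelial cells. They were taken as every gene whose name is ZNF, a number and at most 1 further letter, with at least 1 FPKM (fragments per kilobase of transcript, scaled to the mapped reads of the library) in 3 or more of 30 libraries. Of 418 such names in the deposited files, 140 fell short of that level, 22 of them at 0 in every library. The 278 members made up 3.26% of the 8531 genes that passed the same filter. Just inside the filter were ZNF565, ZNF382 and ZNF826P, whose third-highest wells were at 1.006, 1.007 and 1.007 FPKM. Just outside were ZNF347, ZNF70 and ZNF726, at 0.997, 0.995 and 0.986 FPKM.

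Most ZNF proteins are transcription factors built from tandem C2H2 zinc fingers, each of which contacts a few bases of DNA. In a large subfamily an amino-terminal KRAB domain recruits the scaffold protein TRIM28 (KAP1), which brings histone deacetylase and H3K9 methyltransferase activity to the bound site, often a transposable element. Many KRAB genes lie in dense clusters on chromosome 19 that grew by duplication. Their transcripts are generally scarce and are known as short-lived, and the name ZNF also covers proteins with other domains that act on RNA, ribosomes or the cytoskeleton.

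BEAS-2B is an immortalised line of human airway cells. On a rocker they met the smoke of hookah products for 30 min, and RNA was sequenced 2 h or 24 h later. The 10 groups were the internal control, charcoal with no shisha (here charcoal alone), charcoal heating herbal shisha without tobacco (herbal shisha), charcoal heating tobacco shisha, and an electric heater with tobacco shisha, each at 2 h and at 24 h. Each group held 3 wells. The concentration used was the highest without LDH release at 24 h, and the sources used here do not say how the smoke delivered compared between products or what the control wells received.

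The wells of this 1 cell line are not stated to be independent cultures, so p-values measure the spread between these wells, which may be technical. Summed FPKM per library ran from 199985 to 220259, and the number of reads behind a value is unknown. Of 6 epithelial markers KRT8, KRT18 and KRT19 passed the filter, while KRT5, CDH1 and EPCAM did not. Of 8 mesenchymal and fibroblast markers 5 passed, VIM at 612 to 876 FPKM over the groups and THY1 at 84.9 to 159. Of 6 immune markers CD14 and CD68 passed and PTPRC stayed at or below 0.0107 FPKM, and no red blood cell, endothelial or ciliated marker passed. In bulk RNA a lower value cannot be told apart between fewer cells of a kind and less RNA per cell.

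The members were read from RefSeq and GENCODE to see what they share beyond the name. A C2H2 finger pattern was sought in the longest coding sequence of the 271 members for which one was found under the deposited name. It gave 11 or more fingers in 126, 6 to 10 in 90 and 1 to 5 in 50. The 5 without a match to the strict pattern were ZNF185, ZNF330, ZNF503, ZNF703 and ZNF839. A KRAB-like stretch was called when at least 11 of 14 conserved KRAB residues were in place. It was found in 177 members and not found in 94. It could not be sought in 7 for which no coding transcript was found under the deposited name. Some of the 94 had 9 or 10 of these residues, so that class may include KRAB genes short of the threshold. Chromosome 19 held 131 of the 278 (47.1%), of which 108 were KRAB-like, followed by chromosome 7 with 19 and chromosome 16 with 18. There were 6 transcribed pseudogenes. ZNF724P and ZNF788 could not be matched by their deposited identifier or name, so no position is given for them.

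A promoter sequence was at hand in RefSeq (GRCh38.p14, 250 bases before to 50 after the start) for 238 members. The letters CCGGAAG, the core bound by ETS family factors, were searched on both strands and occurred in 99 of these (41.6%), against 19.7% of 6267 promoters of genes tested and 10.7% of 27305 promoters in all. The CCAAT box, searched as CCAAT on both strands and unable to overlap the ETS letters, occurred in 48.3% of member promoters, 36.7% of those tested and 35.7% of all. Of the stress-related motifs searched the same way, AP-1 (TGANTCA) occurred in 5.88% of member promoters and 4.44% of those tested, CRE (TGACGTCA) in 3.78% and 3.45%, the antioxidant element (TGACNNNGC) in 13.9% and 15.2%, and the dioxin element (TNGCGTG) in 12.2% and 7.69%. The YY1 motif occurred in 5.04% and 4.99%, and the SRF motif in 0.42% and 0.24%. The ETS letters were in 53 of 133 members that fell at 2 h after tobacco shisha on charcoal (39.8%) and in 46 of 105 that did not (43.8%). They were in 67 of 154 members that rose 24 h after the electric heater (43.5%) and in 32 of 84 that did not (38.1%). A match is a description of these letters and not a bound site. Printed here are the 250 bases before the start for 3 members that fell at 2 h (ZNF197, ZNF274, ZNF91) and 2 that rose (ZNF48, ZNF281), with ETS letters in capitals, as CCGGAAG or its complement CTTCCGG. They lie at chr3:44624786-44625035 (plus strand), chr19:58182811-58183060 (plus), chr19:23395472-23395721 (minus), chr16:30378062-30378311 (plus) and chr1:200410037-200410286 (minus).
ZNF197: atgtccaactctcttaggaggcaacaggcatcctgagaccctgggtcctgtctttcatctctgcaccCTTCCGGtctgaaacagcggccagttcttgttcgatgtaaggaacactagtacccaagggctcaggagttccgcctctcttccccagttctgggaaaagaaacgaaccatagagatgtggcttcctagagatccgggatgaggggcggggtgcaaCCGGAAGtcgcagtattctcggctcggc
ZNF274: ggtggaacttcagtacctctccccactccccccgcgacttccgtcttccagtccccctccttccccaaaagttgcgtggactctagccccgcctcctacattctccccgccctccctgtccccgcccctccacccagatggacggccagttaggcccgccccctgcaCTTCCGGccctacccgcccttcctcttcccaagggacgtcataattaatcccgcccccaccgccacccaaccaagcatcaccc
ZNF91: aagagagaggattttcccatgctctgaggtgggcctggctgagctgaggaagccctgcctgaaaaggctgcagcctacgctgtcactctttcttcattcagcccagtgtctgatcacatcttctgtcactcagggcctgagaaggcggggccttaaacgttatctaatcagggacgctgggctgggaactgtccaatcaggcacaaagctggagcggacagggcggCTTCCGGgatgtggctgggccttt
ZNF48: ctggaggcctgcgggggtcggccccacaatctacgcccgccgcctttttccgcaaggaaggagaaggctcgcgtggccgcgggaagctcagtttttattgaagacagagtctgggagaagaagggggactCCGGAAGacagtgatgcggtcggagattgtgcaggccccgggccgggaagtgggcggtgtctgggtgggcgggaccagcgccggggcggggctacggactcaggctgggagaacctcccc
ZNF281: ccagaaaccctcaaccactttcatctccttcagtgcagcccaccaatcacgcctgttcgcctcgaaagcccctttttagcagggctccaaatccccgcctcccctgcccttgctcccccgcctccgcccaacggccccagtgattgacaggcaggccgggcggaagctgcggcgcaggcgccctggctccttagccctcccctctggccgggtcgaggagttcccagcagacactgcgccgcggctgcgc
ZNF197 carried 2 matches in this stretch, ZNF274, ZNF91 and ZNF48 carried 1 each, and ZNF281 had none. ZNF197 was at 2.08, 1.79 and 1.84 FPKM in control wells at 2 h and at 1.02 to 1.62 in all 12 exposed wells, below control, with log2 changes of -0.38, -0.21, -0.38 and -0.40 after charcoal alone, herbal shisha, tobacco shisha on charcoal and the electric heater.

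Expression of the members was low. Their mean over all wells ranged from 0.135 to 40.7 FPKM with a median of 1.98, against 7.08 for all genes tested, and 41 had a mean below 1 FPKM, 183 between 1 and 5, 32 between 5 and 10 and 22 of 10 or more. The highest were ZNF593 (mean 40.7 FPKM), a ribosome assembly factor, ZNF622 (35.5), which acts late in assembly of the large ribosomal subunit, ZNF358 (24.5), ZNF410 (22), an activator of the chromatin remodeller gene CHD4, and ZNF24 (21.3). KRAB-like members had a median of 1.72 FPKM and those without the stretch 3.77. FPKM is already divided by transcript length, so these levels can be set beside each other. Between the control wells of both times 25 members differed (limma on log2(FPKM + 1), adjusted p below 0.05, used for every call here), 5 higher and 20 lower at 24 h, where 7.44% of all genes tested were higher and 9.44% lower. That count fell to between 12 and 16 without any 1 of the 2 h control wells or of the first 2 wells at 24 h. ZNF395, a regulator linked to hypoxia, was the largest rise, from 16.1 ± 0.605 to 22.7 ± 0.179 FPKM (SD, n = 3 wells per group here and throughout).

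At 2 h more members fell than rose after each of the 4 exposures. Charcoal alone lowered 108 members and raised 8, where 16.2% of all genes tested were lower and 8.16% higher. Herbal shisha lowered 132 and raised 11, against 27.7% and 10.6% of all genes. Tobacco shisha on charcoal lowered 156, the most of the 4, and raised 5, against 26.7% and 8.5%. Tobacco shisha on the electric heater lowered 144 and raised 13, against 24.8% and 9.27%. As shares of the 278, the lower members were 38.8%, 47.5%, 56.1% and 51.8% in the same order. The typical fall was modest: the median change in FPKM was -18.9%, -21.9%, -25.8% and -23.8%, against -6.04%, -6.12%, -6.62% and -3.26% for all genes tested. These 4 comparisons share the same 3 control wells.

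**Figure D1:**
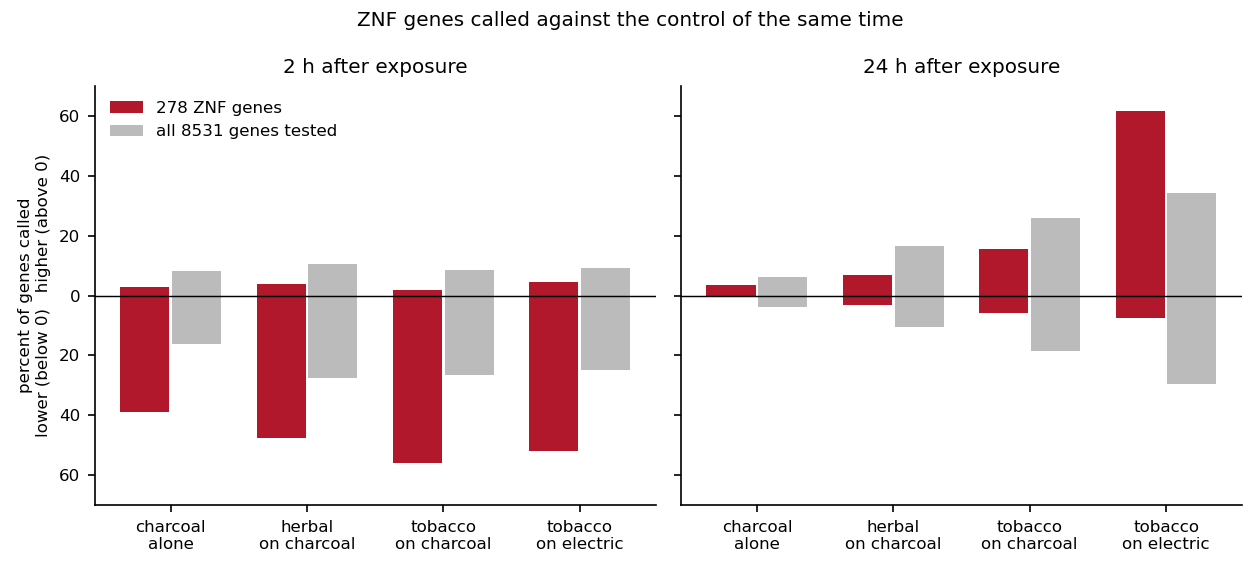
Percent of the 278 ZNF genes (red) and of all 8531 genes tested (grey) called higher (above 0) or lower (below 0) than the control wells of the same time, for each exposure. At 2 h 38.8% to 56.1% of ZNF genes were lower, and at 24 h 61.5% were higher after the electric heater.

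At 2 h, and at 24 h after the electric heater, the level of the family as a whole moved less than its typical member. Summed over the 278, the control wells at 2 h held 1035, 1052 and 1069 FPKM. Charcoal alone was at 942 to 971, herbal shisha at 913 to 917, tobacco shisha on charcoal at 896 to 905 and the electric heater at 936 to 1002. All 12 exposed wells lay below the 3 control wells. At 24 h the controls held 1024 to 1029 FPKM and the electric heater wells 1256, 1335 and 1376, the highest of all groups, with tobacco shisha on charcoal at 1049 to 1125.

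**Figure D2:**
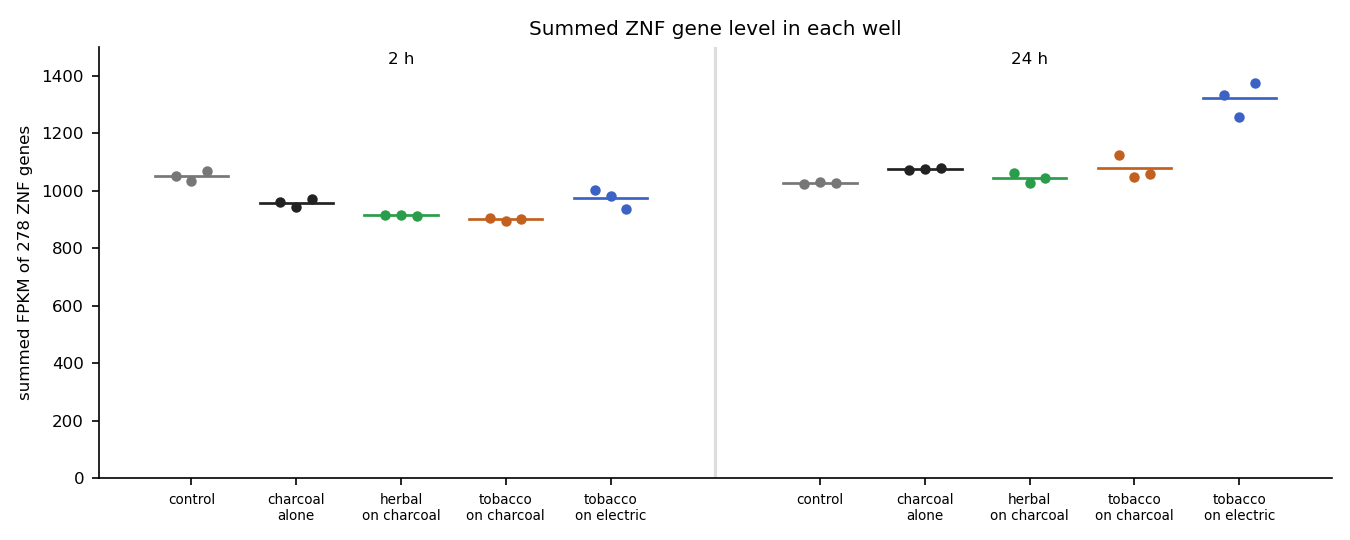
Summed FPKM of the 278 ZNF genes in each of the 30 wells (dots) with the group mean (line), by exposure and time. At 2 h the exposed groups averaged 901 to 974 FPKM against 1052 in control, and at 24 h the electric heater averaged 1322 against 1027.

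FPKM values carry no scaling between libraries beyond their total, and the median gene of all was 0.04 to 0.08 log2 units below control at 2 h. Rescaled by median of ratios, the lower and higher members were 71 and 9 after charcoal alone, 111 and 13 after herbal shisha, 132 and 7 after tobacco shisha on charcoal and 132 and 18 after the electric heater. Falls still outnumbered rises among members, while among all genes the split after charcoal alone turned from 1385 lower and 696 higher to 718 lower and 927 higher. With that scaling 8.42%, 20.7%, 19.2% and 20.6% of all genes were lower after the 4 exposures, and 10.9%, 17.4%, 15.3% and 15.1% higher.

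KRAB-like genes were among the steepest falls. ZNF627, a KRAB-like gene of 11 fingers at chr19:11597483-11619161, was at 2.96, 3.11 and 3.04 FPKM in control wells at 2 h. After charcoal alone it was at 1.12, 1.01 and 1.54, after herbal shisha at 2.17, 1.83 and 2.28, after tobacco shisha on charcoal at 1.22, 1.46 and 1.7, and after the electric heater at 0.974, 0.845 and 1.28. Every exposed well lay below every control well. The log2 changes were -0.87 (SE 0.09, adjusted p = 7.4e-08), -0.39, -0.72 and -0.995, and herbal shisha left it higher than charcoal alone by 0.48 (SE 0.09, adjusted p = 0.000401). ZNF606, with 13 fingers, fell from 1.51, 1.35 and 1.36 FPKM to 0.463, 0.531 and 0.59 after charcoal alone and to 0.343, 0.376 and 0.572 after the electric heater. ZNF302 fell from 3.99 ± 0.237 to 2.2 ± 0.635 FPKM after charcoal alone and 1.87 ± 0.589 after tobacco shisha on charcoal, with 1 low well in each. ZNF564 fell from 2.36 ± 0.00667 to 0.91 ± 0.155 FPKM after the electric heater, and ZNF253 from 1.52 ± 0.0886 to 0.49 ± 0.0686 after tobacco shisha on charcoal.

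ZNF788, a transcript deposited under a non-coding identifier, gave the smallest p among the falls named after charcoal alone. Its control wells held 5.76, 5.38 and 5.43 FPKM. All 12 exposed wells at 2 h were between 2.28 and 3.07, clear of the controls, with log2 changes of -0.88 (SE 0.06), -0.74, -0.78 and -0.87. At 24 h its wells were back at 5.9 to 8.28 FPKM over all groups. Close paralogs of this family share long stretches of sequence, so with 50 bp reads values of single KRAB genes may include reads of a neighbour.

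Some falls at 2 h differed by exposure. ZNF579, a C2H2 protein without a KRAB-like stretch, was at 7.01, 5.96 and 7.06 FPKM in control, 2.24, 2.68 and 1.78 after herbal shisha and 4.09, 4.58 and 3.79 after tobacco shisha on charcoal. After charcoal alone (6.36, 6.43 and 6.02) its wells lay within the control range, and after the electric heater (7.89, 5.98 and 6.8) they overlapped it. The herbal wells were below all others, by -1.25 against control (SE 0.15, adjusted p = 8.26e-07) and by -1.18 against charcoal alone (adjusted p = 1.13e-05). ZNF775 fell from 2.17 ± 0.111 to 0.596 ± 0.18 FPKM after herbal shisha and 0.728 ± 0.129 after tobacco shisha on charcoal, and was lower there than after the electric heater (1.84 ± 0.487; log2 difference -0.71, adjusted p = 4.28e-05). ZNF628 and ZNF710 fell after herbal shisha by 0.72 and 0.69 log2 units. These falls were not confined to herbal shisha: ZNF775 and ZNF710 were called lower after 3 of the 4 exposures and ZNF628 after 2.

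A few calls at 2 h rest on single wells or on zeros. ZNF770 was called lower after charcoal alone (adjusted p = 0.0484) with 1 well at 1.85 FPKM beside 13 and 12.3. It lost the call in 32 alternatives, among them no filter, a pseudocount of 0.1, scaling and leaving out that well, any 1 control well or any 1 well of the groups not compared (adjusted p 0.00572 to 0.294 over all alternatives). ZNF724P was listed at 0 in 1 well each of the electric heater and of tobacco shisha on charcoal, and its call after the electric heater was lost without electric heater replicate 2 or 3 or any 1 control well (0.0064 to 0.207). ZNF100 was called lower after all 4 exposures, but was listed at 0 in 26 of 30 libraries, with 1.21 and 1.19 FPKM in 2 control wells and 0 in the third. ZNF251 was listed at 0 in 21 libraries and ZNF224 in 3.

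Against this fall a small set of regulators rose at 2 h. ZNF281, a zinc finger regulator of GC-rich promoters with links to stemness and epithelial-mesenchymal transition (chr1:200404951-200410036), was at 10.6, 11.4 and 11.2 FPKM in control wells. It was at 17.5, 18.3 and 18.5 after charcoal alone, 20.7, 22.1 and 22.3 after herbal shisha, 20, 19.5 and 21.4 after tobacco shisha on charcoal and 24.2, 24.8 and 14.2 after the electric heater. All 12 exposed wells were above the controls, and 1 electric heater well stood below the other two. The rises were 0.66 (SE 0.12, adjusted p = 0.000156), 0.91 (1.61e-06), 0.82 (7.42e-06) and 0.83 (6.92e-06) log2 units, each with SE 0.12.

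ZNF703 and ZNF503 encode related co-repressors of the NET family, which act on growth and differentiation. ZNF703 was at 9.37, 9.43 and 10.5 FPKM in control and rose to 21.9, 21.4 and 17.7 after charcoal alone and 22.7, 20.3 and 19.4 after the electric heater. Tobacco shisha on charcoal gave 14.6, 14.9 and 12.2, and herbal shisha 10.3, 11 and 9.24, which overlapped control. Herbal shisha stood below charcoal alone by -0.93 (SE 0.09, adjusted p = 3.35e-07). ZNF503, whose deposited row is a non-coding transcript of the gene (chr10:75279725-75401916), rose in the same 3 groups, with 5.81 ± 0.0948 FPKM in control, 12.7 ± 1.72 after charcoal alone, 11.9 ± 0.533 after the electric heater, 8.96 ± 1.3 after tobacco shisha on charcoal and 7.2, 7.6 and 5.95 after herbal shisha. The rises were 1.00 (SE 0.11), 0.92 and 0.54 log2 units, and herbal shisha gave 0.21, which did not pass the test. The counting is not stated to use strand, so reads of a transcript antisense to ZNF503 cannot be told apart.

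ZNF296 rose from 0.806, 0.782 and 0.762 FPKM to 2.52, 2.33 and 2.93 after the electric heater (log2 change 1.01, SE 0.14, adjusted p = 6.2e-06) and more weakly after herbal shisha (1.67 ± 0.135) and tobacco shisha on charcoal (1.51 ± 0.253). Its charcoal alone wells, at 0.75, 1.2 and 1.03, overlapped control. ZNF48 showed another order: 4.82 ± 0.314 FPKM in control, 7.52 ± 0.231 after charcoal alone, 6.73 ± 0.491 after herbal shisha, 6.16 ± 0.398 after tobacco shisha on charcoal and 4.49 ± 0.302 after the electric heater. The electric heater wells were below those of tobacco shisha on charcoal (difference 0.38, adjusted p = 0.00123). ZNF408 rose after the electric heater from 5.66 ± 0.441 to 8.32 ± 0.663 FPKM (adjusted p = 0.000219), and ZNF316 after charcoal alone from 4.17 ± 0.203 to 6.33 ± 0.401.

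**Figure D3:**
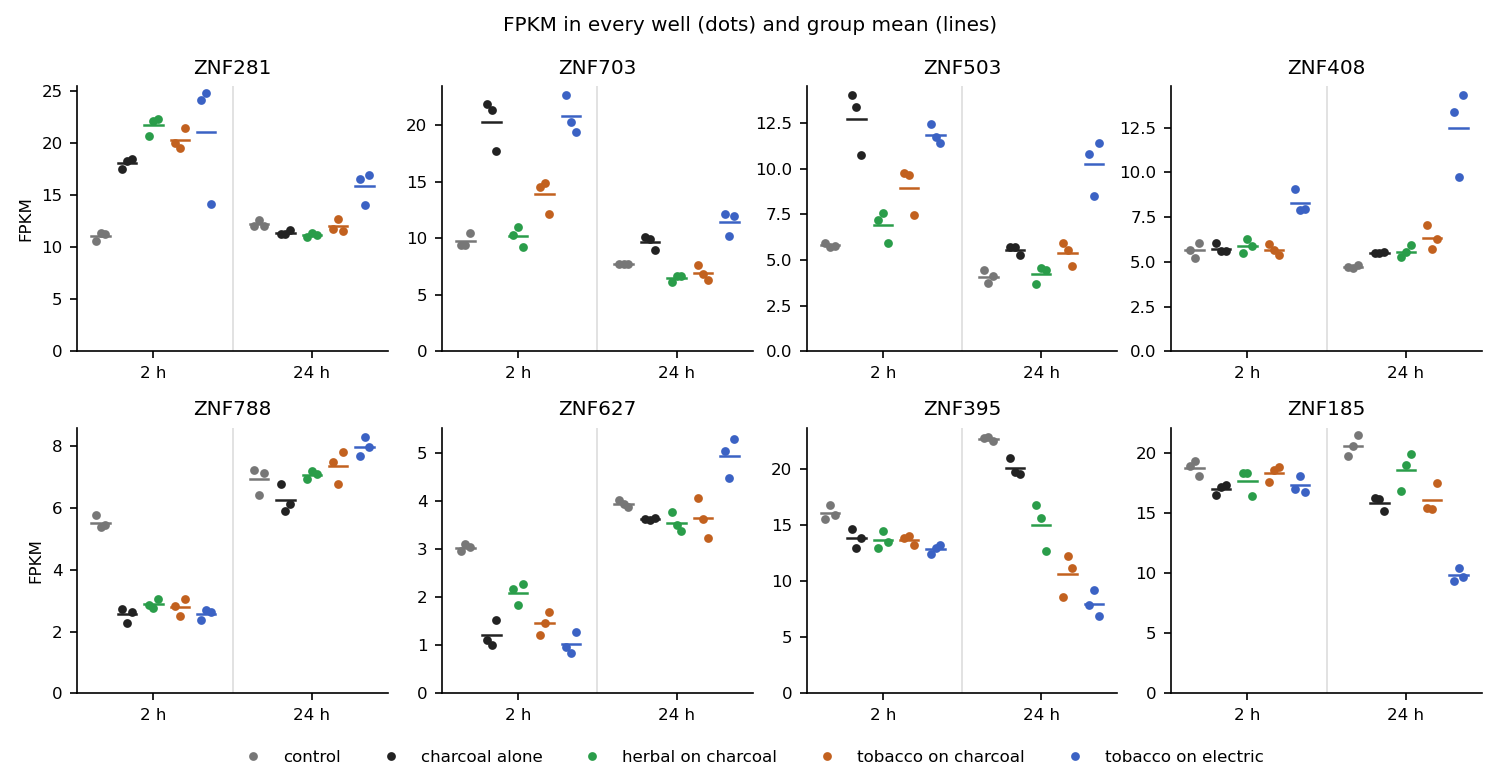
FPKM of 8 ZNF genes in every well (dots) with the group mean (line), 5 exposures at 2 h and at 24 h. ZNF281, ZNF703 and ZNF503 rose at 2 h, ZNF788 and ZNF627 fell at 2 h in all 12 exposed wells, and ZNF408 rose while ZNF395 and ZNF185 fell at 24 h after the electric heater.

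The 2 h falls were counted by protein class, number of fingers and level. Of 177 KRAB-like members, 73, 85, 108 and 106 fell after charcoal alone, herbal shisha, tobacco shisha on charcoal and the electric heater, while 2, 5, 0 and 4 rose. Of 94 without the stretch, 32, 44, 45 and 33 fell and 6, 6, 5 and 9 rose. The gap was widest after the electric heater, 59.9% against 35.1% lower, and smallest after herbal shisha, 48.0% against 46.8%. Members of 11 or more fingers were lower in 60.3% after the electric heater, those of 6 to 10 in 48.9% and those of 1 to 5 in 38.0%. KRAB-like members are also expressed at lower levels, and the part of level in this gap was not tested.

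Members between 2 and 5 FPKM fell more often than other genes of that level after tobacco shisha on charcoal and after the electric heater. Between 2 and 5 FPKM, 42.9%, 54.8%, 57.1% and 58.3% of 84 members were lower after the 4 exposures. Among 1662 other genes of that level, 35.4% were lower after tobacco shisha on charcoal and 33.3% after the electric heater. Their shares after charcoal alone and herbal shisha are not given here, and the shares by level are those without scaling. Below 1 FPKM, 65.9% of 41 members were lower after tobacco shisha on charcoal against 20.1% of 623 other genes. Genes of that bin passed the filter only through the wells where they were highest. Where these were control wells a fall was partly set by the filter, so no weight is put on this bin. Of the 22 members at 10 FPKM or more, 18.2%, 31.8%, 13.6% and 27.3% were lower after charcoal alone, herbal shisha, tobacco shisha on charcoal and the electric heater, against 13.8%, 20.3%, 17.5% and 17.3% of 3495 other genes of that level.

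**Figure D4:**
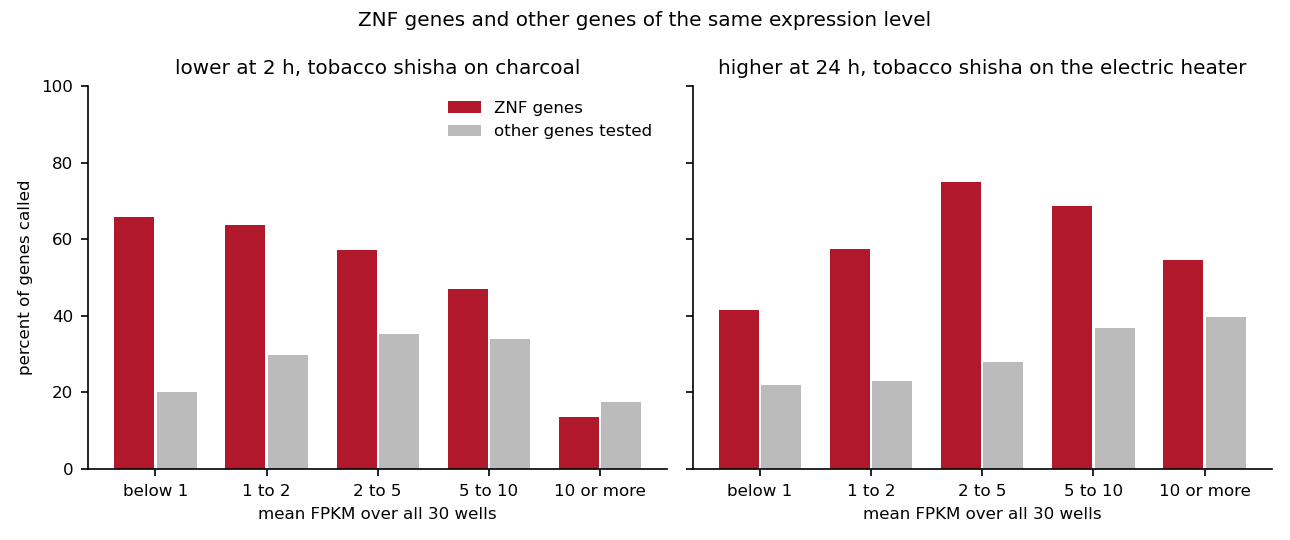
Percent of ZNF genes (red) and of other genes tested (grey) called lower at 2 h after tobacco shisha on charcoal (left) and higher at 24 h after the electric heater (right), by mean FPKM over all wells. ZNF genes exceed other genes in each bin but 1, the 10 FPKM or more bin at 2 h (13.6% against 17.5%). Genes below 1 FPKM passed the filter only through their highest wells, so calls in that bin are partly set by the filter.

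The falls were also counted by position. After tobacco shisha on charcoal 53.1% of the 145 members on other chromosomes were lower, and on chromosome 19 KRAB-like members (63.9% of 108) and those without the stretch (35% of 20) lay on either side of that. Other genes tested on chromosome 19 were lower in 26.9% of 438. When chromosome 19 was split at gaps over 1 Mb between members, the run from ZNF653 to ZNF791 (chr19:11483429-12633834, 17 members) had 10, 10, 10 and 11 lower after the 4 exposures. The run from ZNF576 to ZNF296 (chr19:43596392-45076478, also 17) had 3, 6, 6 and 8. The run from ZNF175 to ZNF331 (chr19:51571283-53580269, 21 members) had 8, 11, 16 and 15.

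At 24 h falls were few, and of the 4 exposures the electric heater alone raised a larger share of members than of all genes. Charcoal alone raised 10 members and lowered 1, below the 6.05% and 3.82% of all genes tested. Herbal shisha raised 19 and lowered 9, against 16.5% and 10.4%. Tobacco shisha on charcoal raised 43 and lowered 16, against 25.9% and 18.6%, so that in these 3 groups a smaller share of members than of all genes was called. After the electric heater 171 members rose and 21 fell, or 61.5% and 7.55% of the 278, against 34.3% and 29.5% of all genes. The median change in FPKM of the members there was 31.5%, against 3.21% for all genes. It was 4.30% against 1.88% after charcoal alone, 0.553% against 2.87% after herbal shisha and 4.81% against 3.45% after tobacco shisha on charcoal. Rescaled by median of ratios, the electric heater counts were 155 higher and 21 lower, against 30.8% and 32.5% of all genes, but herbal shisha turned to 8 higher and 14 lower and tobacco shisha on charcoal to 23 and 22, so no direction is given for the family after these. Single wells also decided the smaller counts: charcoal alone gave 4 to 6 calls without any 1 of its wells or without control replicate 1 or 2, herbal shisha 9 to 17 without control replicate 1 or 2 or herbal shisha replicate 2 or 3, and tobacco shisha on charcoal 35 without its replicate 1.

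The largest rises were 24 h after the electric heater. ZNF408 was at 4.73, 4.64 and 4.84 FPKM in control and 13.4, 9.74 and 14.3 after the electric heater, with 7.08, 5.72 and 6.3 after tobacco shisha on charcoal. The electric heater wells lay above all others (log2 change 1.22, SE 0.09, adjusted p = 1.42e-10). ZNF473, a KRAB-like protein that takes part in histone pre-mRNA processing (chr19:50026005-50048776), was at 5.49, 5.87 and 5.22 FPKM in control and 15.1, 10.1 and 17.9 after the electric heater. Its wells in the other 3 exposures, at 4.81 to 5.62, overlapped control, and the difference from tobacco shisha on charcoal was -1.23 (SE 0.12, adjusted p = 4.37e-08). ZNF296 rose from 0.789 ± 0.194 to 3.67 ± 1.11 FPKM and ZNF503 from 4.1 ± 0.352 to 10.2 ± 1.55. ZNF146 was also called, but 1 of its 3 control wells was at 3.39 FPKM beside 18.2 and 17.6, and the call was lost without that well or any 1 of the electric heater wells (adjusted p 0.00605 to 0.362 over all alternatives).

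The falls at 24 h were fewer and included some of the better expressed members. ZNF395 was at 22.8, 22.9 and 22.5 FPKM in control wells. It was at 21, 19.8 and 19.6 after charcoal alone, 16.9, 15.6 and 12.7 after herbal shisha, 8.6, 12.3 and 11.2 after tobacco shisha on charcoal and 7.91, 9.26 and 6.88 after the electric heater. All exposed wells were below control, but charcoal alone did not pass the test (-0.17, adjusted p = 0.327), while the others fell by 0.57, 1.03 and 1.40 log2 units (SE 0.10). Tobacco shisha on charcoal stood below herbal shisha by -0.46 (adjusted p = 0.0104), a call lost without tobacco shisha on charcoal replicate 1 or without herbal shisha replicate 1 or 2 (adjusted p 0.00267 to 0.391 over all alternatives). ZNF185, a LIM domain protein of the actin cytoskeleton, was at 19.8, 20.6 and 21.5 FPKM in control and 9.35, 10.4 and 9.68 after the electric heater, with log2 changes of -0.999 (SE 0.06, adjusted p = 5.54e-12) there and -0.36 after charcoal alone. ZNF367, ZNF25 and ZNF76 fell after the electric heater by 0.69, 0.62 and 0.56 log2 units, ZNF76 being a paralog of the promoter activator ZNF143, which rose there by 0.91.

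The members named for the smaller 24 h responses were mostly shared between exposures. ZNF689 was called higher at 24 h after all 4 exposures, and ZNF385A, ZNF74, ZNF653 and ZNF576 after 3. The deposited row of ZNF689, like that of ZNF503, is a non-coding transcript of the gene. ZNF791 was called higher after 2 and ZNF488 after 1. Charcoal alone raised ZNF385A, an RNA-binding partner of p53, from 1.03 ± 0.363 to 1.98 ± 0.125 FPKM (adjusted p = 0.00175, and 0.0505, not past the threshold, with the compared groups fitted alone) and ZNF488 from 1.27 ± 0.123 to 2.3 ± 0.168 FPKM. ZNF488 was lower after herbal shisha than after charcoal alone (-0.56, adjusted p = 0.000387). Tobacco shisha on charcoal raised ZNF689 from 5.51 ± 0.349 to 8.14 ± 0.626 FPKM and ZNF74 from 2.07 ± 0.0759 to 3.28 ± 0.425 FPKM. Herbal shisha raised ZNF653 from 9.62 ± 1.04 to 12.3 ± 0.441 FPKM (log2 change 0.33), ZNF576 by 0.36 and ZNF791 by 0.47. The ZNF576 call was lost without herbal shisha replicate 3 (adjusted p 0.00179 to 0.0529 over all alternatives), and the ZNF791 call without control replicate 1 or 2 or herbal shisha replicate 1 (0.0111 to 0.0917).

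KRAB-like members made up 117 of the 171 rises after the electric heater. Of the 177, 117 rose and 4 fell (66.1% and 2.26%), while of the 94 without the stretch 50 rose and 17 fell (53.2% and 18.1%). Between 2 and 5 FPKM 75% of members rose against 28% of other genes, and at 10 FPKM or more 54.5% against 39.6%. Among the chromosome 19 runs, 15 of 17 members rose from ZNF653 to ZNF791 and 15 of 17 from ZNF576 to ZNF296, but 4 of 9 from ZNF101 to ZNF100 (chr19:19668153-21767579). Other genes tested on chromosome 19 rose in 38.1% of 438. After median of ratios scaling 106 KRAB-like members and 46 of those without the stretch rose.

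The change from 2 h to 24 h was tested as an interaction, the 24 h effect minus the 2 h effect. It was higher for 93 members and lower for 4 after charcoal alone, where 16.2% of all genes were higher and 7% lower. After herbal shisha it was 91 and 4 (all genes 24% and 8.3%), after tobacco shisha on charcoal 140 and 5 (30.3% and 10.8%) and after the electric heater 197 and 10 (34.8% and 22.8%). The median gene of all lay 0.09 to 0.13 above 0 in these interactions and 0.01 to 0.02 above it after median of ratios scaling, which gave 63 and 7, 57 and 8, 95 and 6, and 177 and 11, against 8.86%, 12.3%, 16.7% and 29.3% of all genes higher and 9.99%, 13.3%, 17.4% and 27.5% lower. After charcoal alone, 104 of the 108 members lower at 2 h were not called at 24 h and 4 were higher. After the electric heater, 85 of the 144 members lower at 2 h were higher at 24 h, 47 were not called and 12 were lower. That 59.0% was close to the 60.3% (73 of 121) of members not called at 2 h that were higher at 24 h. All 13 that were higher at 2 h were higher at 24 h.

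**Figure D5:**
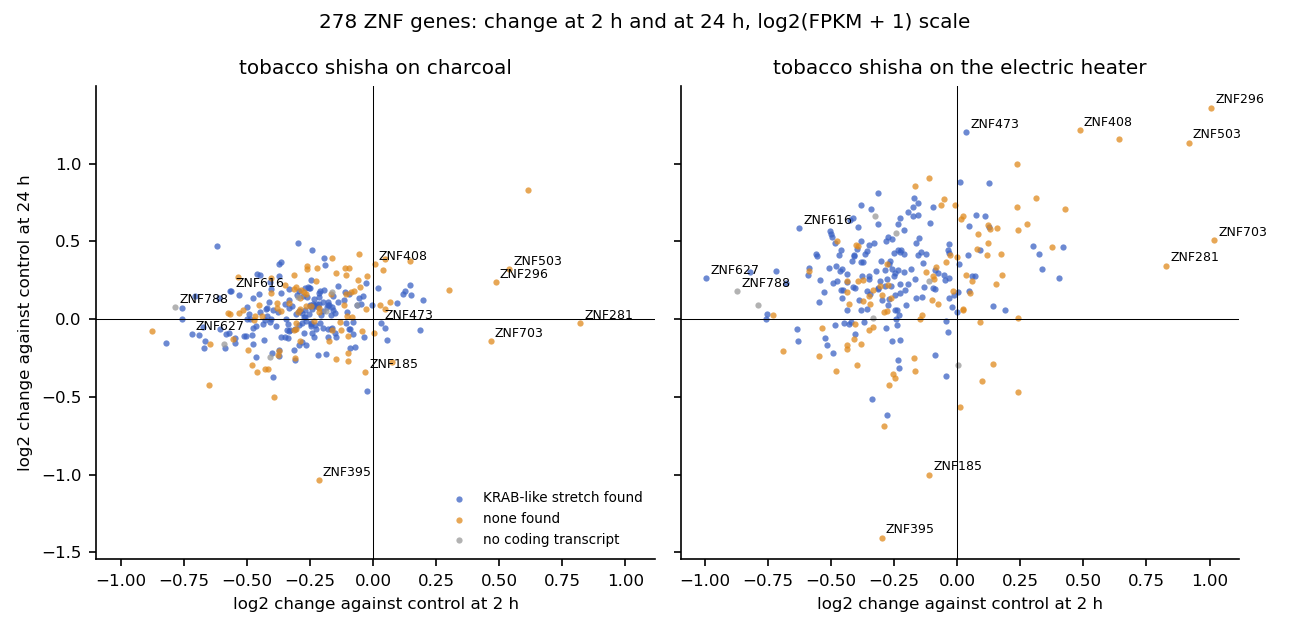
Log2 change against control at 2 h (x axis) and at 24 h (y axis) of the 278 ZNF genes on the log2(FPKM + 1) scale, after tobacco shisha on charcoal (left) and on the electric heater (right), coloured by whether a KRAB-like stretch was found. After the electric heater 220 genes lie to the left of 0 at 2 h and 227 above 0 at 24 h (medians -0.25 and 0.27).

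ZNF627 had the largest such rise among members after the electric heater, with control at 4.03, 3.95 and 3.89 FPKM at 24 h and the electric heater wells at 5.04, 4.49 and 5.3, above control after having been below it at 2 h (interaction 1.26, SE 0.13, adjusted p = 3.1e-08). ZNF616 went from 0.995, 0.938 and 0.71 FPKM at 2 h, below its control wells of 1.94, 1.73 and 2.02, to 3.61, 3.29 and 3.38 at 24 h, above controls of 1.99, 2.03 and 1.84 (interaction 1.21, SE 0.14). ZNF74 did the same after tobacco shisha on charcoal (1.09, SE 0.10, adjusted p = 7.94e-08). The reverse was seen for ZNF281, whose rise was gone at 24 h after charcoal alone, herbal shisha and tobacco shisha on charcoal, with wells of 11 to 12.7 FPKM beside controls of 12 to 12.6. After the electric heater its wells were at 16.5, 14 and 16.9, still above control by 0.34 (adjusted p = 0.0132), a call lost without electric heater replicate 3 (adjusted p 6.55e-06 to 0.0581 over all alternatives).

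Set against each other at 2 h, herbal shisha and charcoal alone differed in 51 members, 15 higher and 36 lower after herbal shisha (10.1% and 14.3% of all genes tested), and in 32 without charcoal replicate 1. At 24 h they differed in 31, 9 higher and 22 lower (16.2% and 15.3%), and in 20 without charcoal replicate 2 or 3 and 11 without herbal shisha replicate 3. Tobacco and herbal shisha, both on charcoal, differed in only 2 members at each time, ZNF579 and ZNF703 at 2 h, both higher after tobacco, and ZNF689 (higher) and ZNF395 (lower) at 24 h. Of all genes 0.305% were higher and 0.305% lower at 2 h, 2.41% and 2.71% at 24 h, and 48 and 33 members had an unadjusted p below 0.05. ZNF579 was at 4.15 ± 0.395 FPKM against 2.23 ± 0.448 (difference 0.68, SE 0.15, adjusted p = 0.0372) and ZNF703 at 13.9 ± 1.5 against 10.2 ± 0.913 (0.41, SE 0.09, adjusted p = 0.0276). Both calls were lost without herbal shisha replicate 1 or 3 or tobacco shisha on charcoal replicate 1 or 2, with adjusted p over all alternatives of 0.0176 to 0.265 and 0.0167 to 0.253. The ZNF689 call was lost without tobacco shisha on charcoal replicate 1 (0.00511 to 0.365).

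Tobacco shisha was also compared between the heat sources. At 2 h, charcoal against the electric heater gave 21 members higher and 43 lower (10.6% and 12.7% of all genes). Fitted on the compared groups alone, 2 were higher and 20 lower. Of the 43, examples were ZNF513 at 3.84 ± 0.683 against 6.53 ± 0.697 FPKM and ZNF404 at 0.881 ± 0.271 against 1.88 ± 0.306, both lower on charcoal. ZNF526 was higher on charcoal, at 4.98 ± 0.132 against 3.56 ± 0.271 FPKM. At 24 h, 147 members were lower on charcoal and 8 higher (22.9% and 24.9% of all genes). ZNF778 was at 0.7, 0.647 and 0.711 FPKM on charcoal and 3.58, 1.25 and 4.44 on the electric heater, whose wells varied most. ZNF185, ZNF25 and ZNF367 were the largest of the 8 that were higher on charcoal, by 0.66, 0.45 and 0.41 log2 units.

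Members were also followed by role, in lists drawn up with earlier results of these data known. Of 18 KRAB genes with a described role 13 were tested, of which 4, 6, 7 and 8 fell at 2 h after the 4 exposures and none rose. These shares, 30.8%, 46.2%, 53.8% and 61.5%, stood beside 38.8%, 47.5%, 56.1% and 51.8% of the whole family and 16.2%, 27.7%, 26.7% and 24.8% of all genes. The median log2 changes of the list were -0.20, -0.19, -0.28 and -0.28. After the electric heater at 24 h 6 rose (46.2%, below the 61.5% of the family) and none fell. ZNF274, which brings the H3K9 methyltransferase SETDB1 to ZNF gene clusters themselves, was at 4.75, 4.79 and 4.76 FPKM in control at 2 h, and at 3.12 to 3.43, 2.71 to 3.28, 2.47 to 2.85 and 3.43 to 3.59 after the 4 exposures, every well below control. It rose 24 h after the electric heater to 7.28, 6.01 and 8.96 from 4.8, 5.16 and 4.96 FPKM. ZNF91, a repressor of SVA retrotransposons, fell at 2 h by 0.30, 0.49, 0.47 and 0.37 log2 units, the first a call lost after scaling or without control replicate 3 or charcoal replicate 1 or 2 (adjusted p 0.00889 to 0.088 over all alternatives), and gave -0.02 after the electric heater at 24 h. ZNF445, a guardian of genomic imprints, gave -0.18 after charcoal alone and fell by 0.44, 0.55 and 0.64 after the other 3.

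Of 19 listed growth and stress regulators 11 were tested, and they split. At 2 h 3 rose and 3 fell after charcoal alone, and 3 rose and 4 fell after the electric heater. Of all genes tested 8.16% rose and 16.2% fell after charcoal alone, and 9.27% and 24.8% after the electric heater. Whether the counts of these 11 genes differ from such shares was not tested. The 3 rises after each were ZNF281, ZNF503 and ZNF703, while ZNF652, a repressor that works with CBFA2T3, fell after all 4 by 0.48, 0.58, 0.56 and 0.69 and ZNF148, a GC-box factor, by 0.23, 0.37, 0.27 and 0.39, the first not past the test after scaling. At 24 h after the electric heater 7 rose and 3 fell, where 34.3% of all genes were higher and 29.5% lower. Of 11 members of chromatin complexes 6 were tested. ZNF512B, a NuRD partner, fell at 2 h after all 4 by 0.27, 0.50, 0.51 and 0.17. Scaling, or leaving out 1 of most wells compared, ended the ZNF512B call after the electric heater (adjusted p 0.0167 to 0.0883 over all alternatives). ZNF827 rose by 0.31 after charcoal alone and fell by 0.44 after the electric heater, and ZNF410 rose after the electric heater at 24 h by 0.73.

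Of 10 listed proteins of RNA, ribosome and ubiquitin pathways 8 were tested, and at 24 h 7 rose and 1 fell after the electric heater (median log2 change 0.41, against 0.27 for the family and 0.03 for all genes tested). After tobacco shisha on charcoal 4 rose and 1 fell (median 0.24, against 0.05 and 0.04). Before scaling, rises outnumbered falls in the family as a whole too in both comparisons. After scaling the family had 155 rises and 21 falls after the electric heater. It had 23 and 22 after tobacco shisha on charcoal, so no direction is given for the family there. The counts of the list were the same after scaling. Of all genes tested 34.3% rose and 29.5% fell after the electric heater, and 25.9% and 18.6% after tobacco shisha on charcoal. ZNF622 was at 26.3, 26.7 and 26.3 FPKM in control, 38.9, 32.1 and 33.3 after tobacco shisha on charcoal and 55.5, 43.7 and 64.5 after the electric heater, all above control (log2 changes 0.38 and 1.00). ZNF593 was at 36, 34.4 and 33.3 in control, 49.7, 43.1 and 43.7 after tobacco shisha on charcoal and 53.6, 51.3 and 55.2 after the electric heater, again without overlap (0.39 and 0.61). ZNF598, the ubiquitin ligase that senses collided ribosomes, rose by 0.33 and 0.42. ZNF638, an RNA-binding silencing factor, fell by 0.34 and 0.29. At 2 h the list gave 0 to 2 rises and 1 or 2 falls per exposure.

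Partners of the KRAB proteins were listed as well. Of 19 genes of the KAP1 complex 13 were tested, and 6, 9, 8 and 6 fell at 2 h after the 4 exposures with none rising, or 46.2%, 69.2%, 61.5% and 46.2%, where 16.2%, 27.7%, 26.7% and 24.8% of all genes were lower. Their median log2 changes were -0.15, -0.34, -0.30 and -0.25, against -0.08, -0.07, -0.08 and -0.04 for all genes. After scaling charcoal alone left 2 falls (15.4%, where 8.42% of all genes were lower), and the others 8, 8 and 6. TRIM28 itself was at 187, 190 and 191 FPKM in control at 2 h, 182, 172 and 173 after charcoal alone, 167, 178 and 172 after herbal shisha, 180, 181 and 180 after tobacco shisha on charcoal and 199, 186 and 208 after the electric heater. Only herbal shisha passed the test (-0.14), and at 24 h TRIM28 rose after tobacco shisha on charcoal by 0.16 and after the electric heater by 0.27. ATF7IP, which stabilises SETDB1, fell at 2 h from 11.5 ± 0.0919 to 7.65 ± 0.143, 6.29 ± 0.195, 7 ± 0.484 and 7.45 ± 1.04 FPKM. UHRF1, a reader linking histone and DNA methylation, was at 24.2, 23.5 and 26 FPKM in control at 24 h and 12.3, 15 and 13.5 after the electric heater (-0.81). Of 9 genes on a HUSH list only FAM208A and MORC3 were tested, and MORC3 is not a subunit of that complex. Both fell at 2 h after the electric heater, by 0.46 and 0.40, where 24.8% of all genes were lower.

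Zinc finger families under other names were counted in the same way. Of 19 ZBTB genes 8, 6, 8 and 12 fell at 2 h after the 4 exposures and at most 1 rose. As shares the falls were 42.1%, 31.6%, 42.1% and 63.2%, of which the second was near the 27.7% of all genes lower after herbal shisha. At 24 h after the electric heater 9 rose (47.4%, where 34.3% of all genes rose) and none fell. Of 5 ZSCAN genes 4, 3, 4 and 2 fell at 2 h, and of 4 ZKSCAN genes 3, 2, 3 and 3. Of all genes tested 16.2%, 27.7%, 26.7% and 24.8% were lower after the 4 exposures. Whether the counts of such small families differ from these shares was not tested. After scaling charcoal alone left 3 ZBTB, 3 ZSCAN and 1 ZKSCAN falls, where 718 of all 8531 genes tested were lower. Among 8 ZFP genes ZFP30, ZFP37 and ZFP41 were called lower in each of the 4 comparisons, but charcoal alone left 1 fall after scaling. ZFP36, which is an RNA-decay factor with CCCH fingers, rose from 6.78, 6.62 and 6.16 FPKM to 75.4, 70.8 and 73.8 after the electric heater at 2 h.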

How the data were processed

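RNA from 30 BEAS-2B libraries (TruSeq, 50 bp single-end reads) was deposited as 1 table per sample with FPKM values per transcript identifier and gene name. Per the submitters' processing notes the authors used the human build hg38, HISAT2 2.1.0 and StringTie 1.3.4d; the annotation release and any use of strand are not stated. The deposited FPKM values hold no read counts, so depth is unknown and no counting interval is given.

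For each gene name the row with the highest mean was kept. Genes with FPKM of at least 1 in at least 3 libraries were tested (8531). limma 3.58.1 in R 4.3.3 was fitted with a mean trend to log2(FPKM + 1) over all 30 libraries as 10 group means (20 residual degrees of freedom, prior 2.76), so all groups share 1 estimate of spread. Fold changes on this scale understate the change of low genes. P-values were adjusted by Benjamini-Hochberg over all 8531 genes, and an adjusted p below 0.05 was called. Tables were handled with Python 3.11.15, pandas 2.3.3 and numpy 2.4.6, and figures drawn with matplotlib 3.10.9. The fit was tested on simulated data.

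The members and lists were chosen with earlier results of these data known. Named were the largest called rises and falls of each comparison with wells that do not overlap (5 each way against control and between the control times), the 3 largest each way between exposures and in interactions, the listed role and partner genes, the 5 members of highest mean and the 3 on each side of the filter. Others named (ZNF100, ZNF197, ZNF224 and ZNF251) were chosen after their values were seen. Gene positions and promoters are from RefSeq on GRCh38.p14. Fingers were counted in the longest translated GENCODE coding sequence of each gene name. KRAB-like stretches were sought in all its translated protein-coding transcripts, and the best match was kept. Alternatives were a replicate block, no filter, a pseudocount of 0.1, median-of-ratios scaling, summed transcripts, the compared groups alone and leaving out each well.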

Additional observations from a re-analysis of the deposited data

Results flagged for a closer look

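The effect of each exposure differed between 2 h and 24 h by the interaction test in 97 ZNF genes after charcoal alone and 95 after herbal shisha. It differed in 145 after tobacco shisha on charcoal and 207 after the electric heater. These were 34.9%, 34.2%, 52.2% and 74.5% of members. Of all 8531 genes tested 1979, 2756, 3502 and 4918 were called in the same order, so the herbal shisha share of members was near that of all genes. After median of ratios scaling 70, 65, 101 and 188 members were called. The values below are the 24 h effect minus the 2 h effect on the log2(FPKM + 1) scale, all past an adjusted p of 0.05 in limma.

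After charcoal alone the difference was 1.13 for ZNF488, 0.80 for ZNF775 and 0.77 for ZNF627. It was -0.76 for ZNF281, -0.69 for ZNF703 and -0.64 for ZNF503. ZNF488 was below its control wells at 2 h (0.475 to 0.793 against 1.36 to 1.5 FPKM) and above them at 24 h (2.12 to 2.46 against 1.19 to 1.41).

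After herbal shisha ZNF100 gave 1.14, a value that rests on wells listed at 0 and was not past the test without control replicate 2 or 3 at 2 h (adjusted p 0.000722 to 0.111 over all alternatives). ZNF579 gave 0.96 and ZNF628 gave 0.89, while ZNF281 gave -1.03. ZNF548 gave -0.38 and ZNF597 gave -0.36; the first was not past the test without herbal shisha replicate 3 at 2 h (adjusted p 0.00597 to 0.0515), the second without herbal shisha replicate 2 or 3 at 2 h or control replicate 2 at 24 h (0.011 to 0.0808).

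After tobacco shisha on charcoal ZNF74 gave 1.09, and ZNF788 and ZNF433 gave 0.86 each. ZNF281 gave -0.84, ZNF395 gave -0.82 and ZNF703 gave -0.61.

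After the electric heater ZNF627 gave 1.26, ZNF616 gave 1.21 and ZNF473 gave 1.17. ZNF395 gave -1.11, ZNF185 gave -0.89 and ZNF524 gave -0.71.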

How the results depend on the processing

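The falls at 2 h and the electric heater rise at 24 h kept their direction under every alternative run. Over the fits that left out 1 well, calls at 2 h ranged from 82 to 122 after charcoal alone, 117 to 147 after herbal shisha, 134 to 166 after tobacco shisha on charcoal and 135 to 163 after the electric heater. At 24 h they ranged from 4 to 14, 9 to 30, 35 to 62 and 163 to 195, and between the control times from 12 to 30. Between exposures they ranged from 32 to 55 (2 h) and 11 to 39 (24 h) for herbal shisha against charcoal alone, 0 to 4 and 0 to 9 for tobacco against herbal shisha, and 45 to 65 and 130 to 163 for tobacco on charcoal against the electric heater. The interactions ranged from 76 to 104, 74 to 104, 118 to 147 and 193 to 211. Without the filter on low values charcoal alone at 24 h gave 7 calls and tobacco against herbal shisha at 2 h gave 1. Fitting the compared groups alone, with fewer libraries for the spread, gave 11 for herbal shisha at 24 h, 40 between the control times, 22 for tobacco on charcoal against the electric heater at 2 h, 19 for herbal shisha against charcoal alone at 24 h, and 0 for tobacco against herbal shisha at 2 h and at 24 h. Scaling gave 1 higher and 2 lower for the latter at 24 h.

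Wells of the same replicate number were weakly correlated. The mean correlation of their deviations was 0.00813 to 0.0607, against -0.0283 to -0.00443 between wells of different numbers. Single pairs of the same number reached 0.23. The labels do not say whether replicate numbers pair wells across groups. With the replicate block the counts were 113, 141, 157 and 159 at 2 h, 12, 27, 58 and 193 at 24 h, and 100, 94, 143 and 207 for the interactions. No called value of a named gene changed sign under any alternative. Depth is unknown, which limits members near 1 FPKM.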
